A study of Mus musculus with 55 samples.

Results

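The effect of type 1 diabetes on RNA in the healing infarct of the mouse left ventricle was compared between day 28 and day 7 after infarction. For each gene the log2 fold of type 1 diabetic over non-diabetic tissue was taken at day 28, and the same fold at day 7 was subtracted from it. The libraries were chosen by their sample titles, which give the day and the diabetic state, and 37 of the 55 libraries of the series entered the contrast: 8 non-diabetic and 8 type 1 diabetic at day 7, and 11 non-diabetic and 10 type 1 diabetic at day 28. A difference above 0 therefore marks a gene whose diabetic effect was higher at day 28 than at day 7, and a difference below 0 a gene whose effect was lower at day 28.

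All 4 groups were C57BL/6J mice with a myocardial infarction, and the tissue was the infarcted part of the left ventricle. The series' description names permanent tying of the coronary artery and day 7, so day 28 rests on the titles and the time label. The names of the type 1 diabetic libraries carry hi STZ, and those of the non-diabetic libraries carry Ctrl. STZ is the usual abbreviation of streptozotocin, a toxin taken up by the insulin-producing beta cells of the pancreas. The labels give neither its dose nor the time between diabetes and infarction, nor the age or sex of the mice. They do not say that replicates were separate animals, so the p-values rest on the spread among the libraries at hand, part of which may be technical. Each day carries its own sequencing project number: day and project cannot be told apart here, and only an offset that is the same in both groups of a day cancels in the contrast.

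After a coronary artery is closed, dead heart muscle is cleared by neutrophils and monocyte-derived macrophages. Fibroblasts then turn into myofibroblasts that lay down collagen, and the scar matures as elastic fibres, crosslinks and tendon-like matrix proteins are added and the immune cells leave. In untreated type 1 diabetes insulin is missing, so fatty acids and ketone bodies reach the heart in excess, glucose uptake falls and genes held down by insulin are released.

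Library totals ran from 10.8 to 51.2 M (mega) counts at day 7 and from 57.4 to 89.6 M at day 28, and 20421 genes were tested. Type 1 diabetic replicate 4 of day 7 stood apart: its mean log2 CPM (counts scaled to 1 M per library, prior count 2) was 5.01 over the cardiomyocyte markers, against 6.45 to 8.66 in the other 7 libraries of its group, and 4.85 over the adipocyte, 5.14 over the B cell and plasma cell and 4.92 over the neutrophil markers, the highest of the 16 day 7 libraries in each. Non-diabetic replicate 5 of day 7 also lay apart from its group. Of the 8 controls of day 7 it had the lowest cardiomyocyte mean (7.33) and the highest neutrophil mean (2.93). Cardiomyocyte markers as a whole were at 8.43 ± 0.56 (SD, n = 8) in non-diabetic and 7.41 ± 1.27 (n = 8) in type 1 diabetic libraries at day 7, and at 10.51 ± 0.29 (n = 11) and 10.37 ± 0.26 (n = 10) at day 28. In bulk tissue fewer cells of a type and less RNA per cell cannot be told apart, and this holds for every list below.

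The type 1 diabetic effect differed between the days for 2548 genes (12.5% of those tested), by edgeR's quasi-likelihood test of the difference (a gene passed where its Benjamini-Hochberg adjusted p was 0.05 or less). The effect was higher at day 28 for 1425 genes (6.98%) and lower for 1123 (5.5%). These shares of all genes are the background for the list counts below. Of the genes that averaged 1 or more in log2 CPM over the libraries, the 6 largest passing differences above 0 were those of C1qtnf3, Col2a1, Matn4, Myoc, Eln and Fbln7, which ran from 2.49 to 2.92 on the log2 scale. The 5 lowest by the same limit were those of the neutrophil genes S100a9 (-3.19) and S100a8 (-3.07), the monocyte gene Chil3 (-2.88), the collagen Col6a5 (-2.52) and the chemokine Ccl7 (-2.40). A further set of metabolic and stress genes was higher in diabetic tissue at day 28 with little or no effect at day 7, among them Irs2, Nr4a3 and Cpt1a.

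Most genes whose effect differed between the days had passed at day 7 only. The day 7 fold enters both the difference and this label, so the 2 calls are not independent. At day 7 the type 1 diabetic and non-diabetic groups differed for 4483 genes (22%), 2085 higher (10.2%) and 2398 lower (11.7%). At day 28 they differed for 665 (3.26%), 395 higher (1.93%) and 270 lower (1.32%). The day 28 counts depended strongly on the fit, with 1291 higher and 1501 lower under limma-voom with quality weights, 2 and 0 with summed libraries, and 68 to 528 and 15 to 382 with libraries left out. Of the 2548 genes whose effect differed between the days, 1923 (75.5%) had passed at day 7 only, 184 (7.22%) at day 28 only, 83 at both days and 358 (14.1%) at neither. Of the 83, 82 had opposite signs at the 2 days and 1, Angptl4, had the same sign. Passing at day 7 and not at day 28 did not by itself show a difference: of 4295 such genes, the difference passed for 1923 (44.8%). The median difference over all genes was -0.0041.

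**Figure D1:**
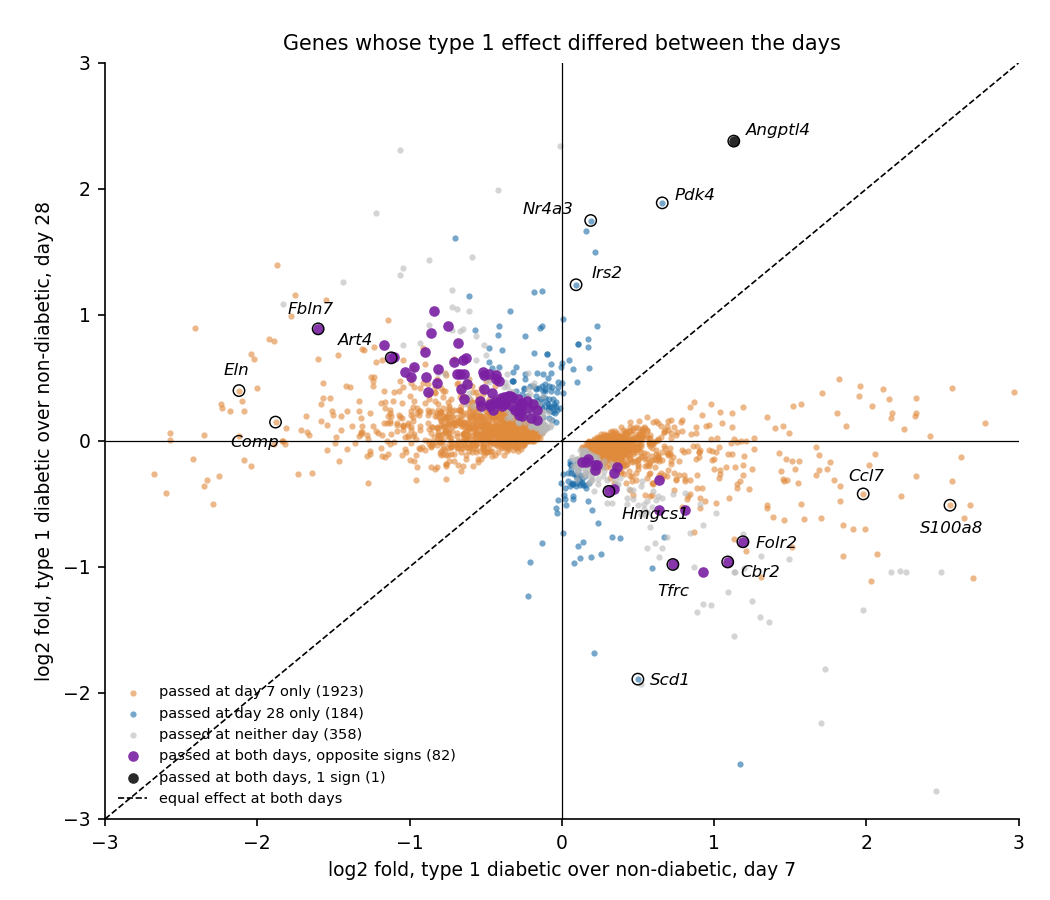
Each point is 1 gene whose type 1 diabetic effect differed between the days, with the log2 fold of type 1 diabetic over non-diabetic tissue at day 7 on the x axis and at day 28 on the y axis. Colours give the days at which the gene's own effect passed the test, the dashed line marks equal effects, and 40 of the 2548 genes lie outside the axes, which end at 3 on the log2 scale. Most points lie in the upper left, as Eln and Comp do, or in the lower right, as S100a8 and Ccl7 do, and Angptl4 and Pdk4 lie above the line in the upper right.

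The count depended on how libraries were grouped. Library names begin with a number that several libraries of a group share, and the labels do not say what it marks. Within a day no first number occurred in both diabetic and non-diabetic libraries. Whatever the first number marks therefore cannot be told apart from diabetic state at either day, and its part in the effects was not tested. When libraries of a group with the same first number were summed, leaving 6 sums in each day 7 group and 4 in each day 28 group, 299 genes were higher and 124 lower at day 28, and 416 of the 2548 genes (16.3%) passed again. All 2548 kept the sign of their difference, but the sums hold the same counts, so a kept sign says little about the calls that were lost. Of the 122 named genes that passed, 73 were lost in that fit, and the other 49 passed in it, in each of the other 9 alternatives and in all 46 fits that left out a library or a set sharing a first number.

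Late scar and cartilage-like matrix genes showed the largest median difference above 0 of the lists with at least 2 genes that differed. These are matrix genes expressed in maturing scar, tendon or cartilage. All 14 tested members had been lower in type 1 diabetic tissue at day 7, with a median of -1.26 over the list. By day 28 the median was 0.19, with 1 member higher and 1 lower. Between the days 11 of 14 differed, all above 0, with a median of 1.44, against 6.98% of all genes. The mean of the list per library lay at 5.41 ± 0.47 (SD, n = 8) in non-diabetic and 4.15 ± 0.48 (n = 8) in type 1 diabetic tissue at day 7, and 7 of the 8 diabetic libraries lay below every control. The exception was replicate 3, at 5.18. At day 28 the list lay at 6.20 ± 0.30 (n = 11) and 6.28 ± 0.23 (n = 10).

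Comp, a pentameric matrix protein that organises collagen fibrils, ran from 7.55 through a median of 8.44 to 8.95 log2 CPM in non-diabetic and from 5.27 through 6.51 to 7.60 in type 1 diabetic libraries at day 7. At day 28 it ran from 9.39 through 10.16 to 10.87 in non-diabetic and from 9.93 through 10.27 to 10.92 in type 1 diabetic libraries. The diabetic libraries were low at day 7, with 7 of 8 below the lowest control, and overlapped the controls at day 28. Comp was thus 1.88 lower at day 7 (SE 0.256, adjusted p = 1.14e-06) on the log2 scale and 0.15 higher at day 28 (SE 0.216, adjusted p = 0.78), and the difference was 2.03 (SE 0.331, adjusted p = 3.45e-05). Fmod, a small leucine-rich proteoglycan that binds collagen, had a difference of 1.87 (SE 0.326), and Mfap4, a microfibril-associated glycoprotein, one of 1.47 (SE 0.232). Clu, the secreted chaperone clusterin, fell at day 7 (-0.64) and rose at day 28 (0.53). The list held 11 members with a difference both without type 1 diabetic replicate 4 of day 7 and with the cardiomyocyte markers as a covariate, and 3 with summed libraries.

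Acan and Col2a1, the proteoglycan aggrecan and the main collagen of cartilage, and Matn4 and C1qtnf3, which are also expressed in cartilage and its lining, showed the same shift of the diabetic effect. Their levels did not follow Comp: in non-diabetic tissue they were lower at day 28 than at day 7, though each day has its own project. Matn4 ran from 3.22 through 4.84 to 5.37 log2 CPM in non-diabetic and from 1.28 through 2.50 to 3.65 in type 1 diabetic libraries at day 7, and from 1.83 through 2.63 to 3.36 and from 2.90 through 3.32 to 4.13 at day 28. At day 7, 6 of 8 diabetic libraries lay below the lowest control, while at day 28 all 10 lay above the control mean and 5 above the highest control. Its effect of -2.02 at day 7 and 0.65 at day 28, the latter not past the test (adjusted p = 0.152), gave a difference of 2.66 (SE 0.391, adjusted p = 8.3e-06), or 6.34-fold. The differences were 2.92 (SE 0.619) for C1qtnf3, 2.77 (SE 0.559) for Col2a1 and 2.15 (SE 0.467) for Acan. Myoc, which encodes the secreted protein myocilin, was lower in all 8 diabetic libraries at day 7 (log2 fold -2.57, SE 0.446) and at 0.01 at day 28. Its diabetic and non-diabetic libraries did not overlap at day 7, which was so for 0.681% of genes in the lower direction.

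Elastic fibre and crosslinking genes included Eln, which encodes elastin itself. Eln ran from 9.81 through 10.98 to 11.87 log2 CPM in non-diabetic and from 8.19 through 9.04 to 9.54 in type 1 diabetic libraries at day 7. At day 28 it ran from 8.90 through 9.93 to 10.48 and from 9.75 through 10.27 to 10.79. The groups did not overlap at day 7, and at day 28 9 of 10 diabetic libraries lay above the control mean. Eln was 4.34-fold lower at day 7 (log2 fold -2.12, SE 0.273, adjusted p = 5.8e-07), its effect at day 28 was 0.40 (SE 0.229, adjusted p = 0.372), and the difference was 2.52 (SE 0.353, adjusted p = 5.31e-06). Leaving out libraries kept it at or above 2.29. Ltbp4, a latent TGF-beta binding protein needed for elastic fibre assembly, had a difference of 1.32 (SE 0.192), and Ltbp3 one of 1.13 (SE 0.164). Over the list the difference passed for 14 of 25 members above 0 and 2 below 0, with a median of 0.57. At day 7, 8 members were lower and 3 higher, and at day 28 1 was higher.

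Collagen chains followed with smaller values. At day 7, 12 of 20 tested chains were lower (median -0.46) and at day 28 2 were higher (median 0.24), and the difference passed for 11, all above 0 (median 0.66). Col6a5, a chain outside the list, passed below 0 (-2.52, adjusted p = 0.0429). Without type 1 diabetic replicate 4 of day 7 its difference was -1.01 (adjusted p = 0.418). Col1a1, the main chain of scar collagen, ran from 13.19 through 13.60 to 13.80 log2 CPM in non-diabetic and from 12.23 through 12.76 to 13.36 in type 1 diabetic libraries at day 7, and from 9.13 through 9.92 to 10.24 and from 9.53 through 10.04 to 10.70 at day 28. It was 0.74 lower at day 7 (SE 0.165) on the log2 scale, and its difference was 1.01 (SE 0.219, adjusted p = 0.00126). Col14a1, a collagen of the fibril surface, fell at day 7 (-0.67, SE 0.154) and rose at day 28 (0.53, SE 0.134), and Col7a1, the anchoring fibril collagen, did the same (-0.71 and 0.63). Among the day 28 diabetic libraries replicates 5 and 8, both of first number 68, and replicate 9 had the highest collagen list means, at 8.52, 8.54 and 8.65, while replicate 1 had the lowest at 7.76, below the control range of 7.77 to 8.19.

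Resting fibroblast markers and myofibroblast genes each had 8 members whose effect differed between the days, all above 0. The resting list was lower at day 7 for 9 of 15 members (median -0.65) and higher at day 28 for 1 (median 0.034). Smoc2, a matricellular protein of fibroblasts, had no overlap between groups at day 7 (5.92 to 6.60 against 6.77 to 7.21 log2 CPM) and a difference of 0.95 (SE 0.126, adjusted p = 1.94e-06). Myofibroblast and activation genes were lower at day 7 for 6 of 16 (median -0.38), and their list mean at day 28 was 6.76 ± 0.17 (SD, n = 10) in diabetic against 6.48 ± 0.10 (n = 11) in non-diabetic tissue, with 8 of 10 diabetic libraries above every control. Of its members 2 had passed at day 28, both higher. Postn, the matricellular protein periostin, was 0.59 lower at day 7 (SE 0.157) on the log2 scale, had an effect of 0.44 at day 28 (SE 0.137, adjusted p = 0.0604) and a difference of 1.02 (SE 0.209, adjusted p = 0.000636). Cthrc1, a secreted marker of activated fibroblasts, fell 1.61-fold at day 7 and rose 1.71-fold at day 28, a difference of 1.46 (SE 0.302, adjusted p = 0.00077).

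**Figure D2:**
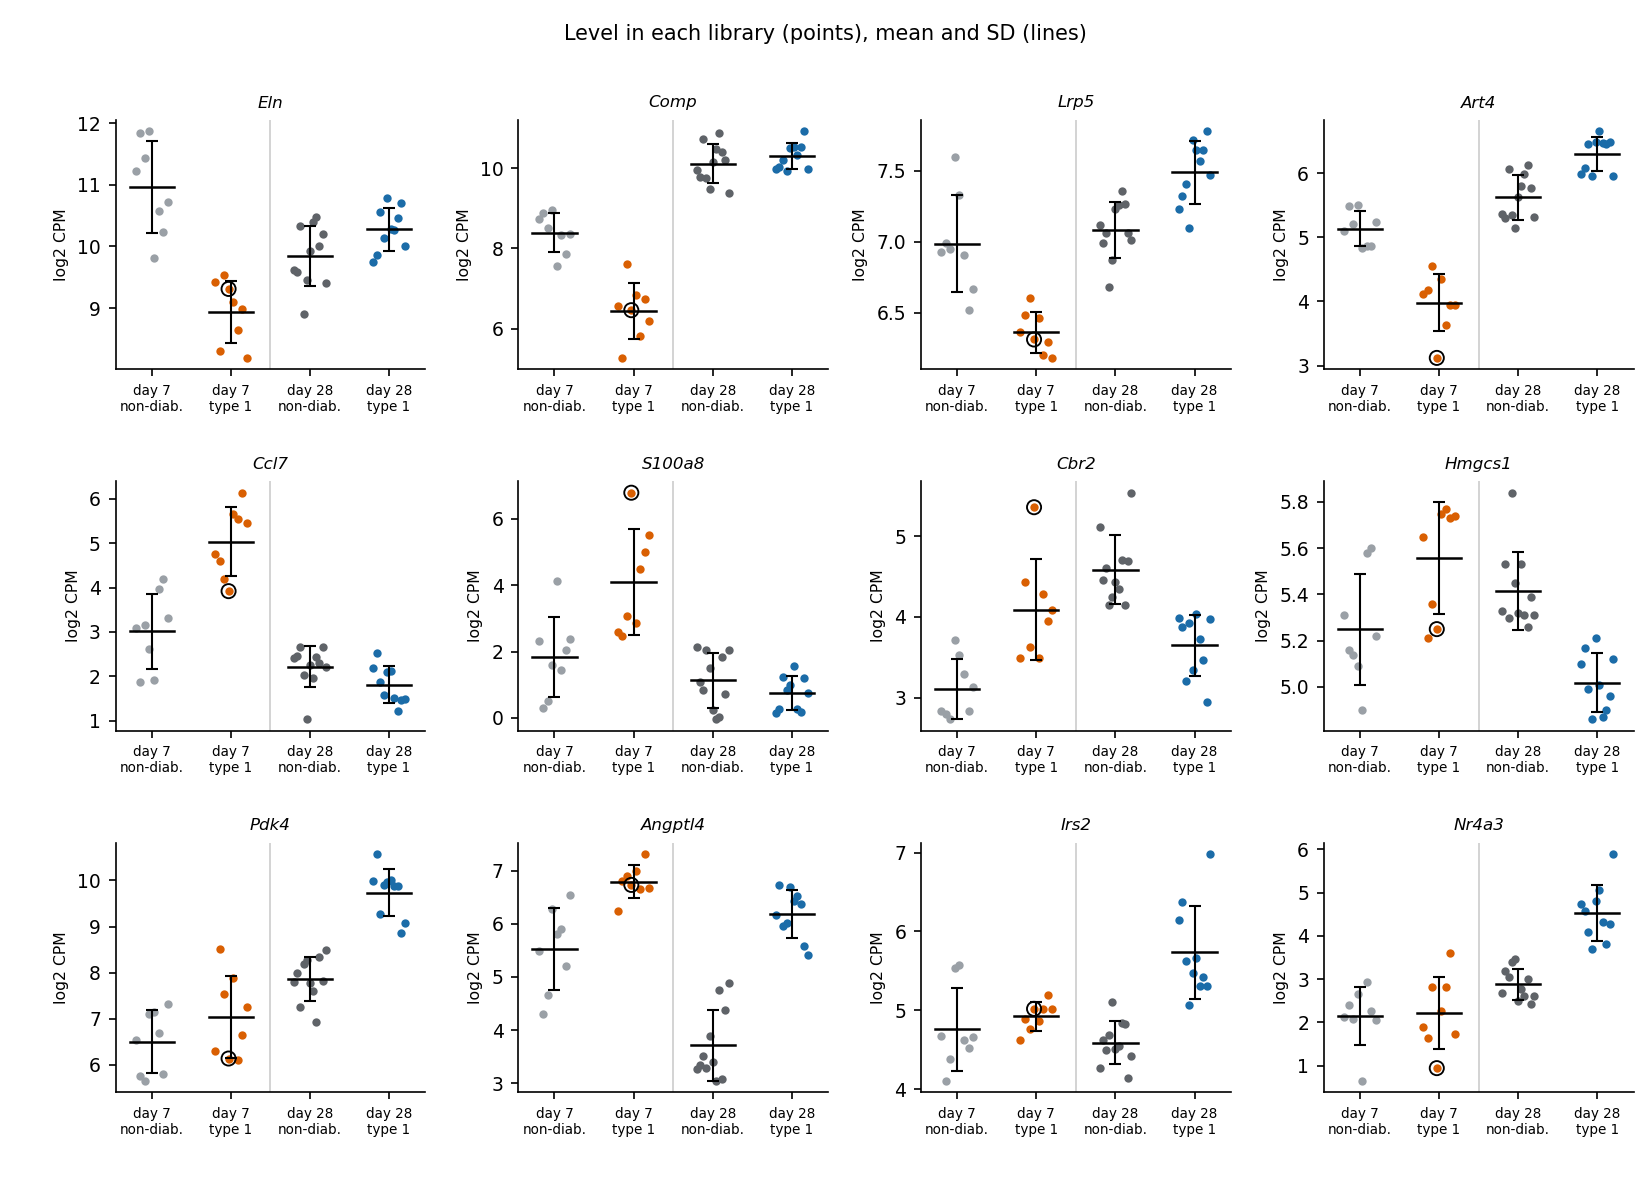
Level of 12 genes in log2 CPM on the y axis in every library of the 4 groups on the x axis, with points for libraries, horizontal lines for group means and bars for the SD, and with day 7 type 1 diabetic replicate 4 ringed. Eln and Art4 are low in all diabetic libraries at day 7 without overlap, Cbr2 and Hmgcs1 are low in all diabetic libraries at day 28 without overlap, and Pdk4, Angptl4 and Nr4a3 are high there without overlap.

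The genes that changed at both days with opposite signs numbered 82, of which 65 fell at day 7 and rose at day 28 and 17 did the reverse. Their median effect was -0.40 at day 7 and 0.31 at day 28. The smallest p-values among them belonged to genes of mixed function. Lrp5, a co-receptor of Wnt ligands, ran from 6.52 through 6.94 to 7.60 log2 CPM in non-diabetic and from 6.18 through 6.34 to 6.60 in type 1 diabetic libraries at day 7, and from 6.68 through 7.06 to 7.36 and from 7.10 through 7.52 to 7.78 at day 28. At day 7, 7 of 8 diabetic libraries lay below the lowest control, and at day 28 7 of 10 lay above the highest. The effect moved from -0.66 (SE 0.108, adjusted p = 1.83e-05) to 0.41 (SE 0.0933, adjusted p = 0.00769), a difference of 1.07 (SE 0.142, adjusted p = 1.94e-06). Art4, an ADP-ribosyltransferase family member that carries the Dombrock blood group, moved from -1.12 to 0.66, and its groups did not overlap at day 7. Fbln7, a fibulin of the matrix, moved from -1.60 to 0.89, and Ssc5d, a secreted scavenger receptor protein, from -0.99 to 0.51.

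Mfge8, the secreted protein that bridges dying cells to phagocytes, moved from -0.44 (SE 0.0739) to 0.31 (SE 0.0644), and Synpo, an actin-binding protein, from -0.47 (SE 0.0763) to 0.29 (SE 0.0665). Cdc42bpg, a kinase that acts with the small GTPase CDC42, moved from -0.37 to 0.30. Its day 28 libraries did not overlap, at 5.45 to 5.78 log2 CPM in diabetic against 4.85 to 5.40 in non-diabetic tissue, which in the higher direction was so for 0.113% of genes. Mmp2, the gelatinase of fibroblasts, moved from -0.82 (SE 0.143) to 0.46 (SE 0.124). The number with opposite signs moved with the day 28 calls. It was 306 with limma-voom quality weights, 166 with the cardiomyocyte covariate and 126 with DESeq2, and it fell to 3 without the 4 day 28 type 1 diabetic libraries of first number 68, to 13 without the 5 day 28 non-diabetic libraries of first number 1, to 50 with the replicate number as a block and to 0 with summed libraries, where 2 genes in all passed at day 28.

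TGF-beta and Wnt pathway genes were described from lists of 21 and 24 tested members. TGF-beta is the main signal that turns fibroblasts into matrix-producing cells. Of the TGF-beta pathway members 6 differed between the days, all above 0 (list median 0.25), against 6.98% of all genes. Tgfb3, a ligand, was lower at day 7 without overlap (6.96 to 8.29 against 8.30 to 8.55 log2 CPM; log2 fold -0.98, SE 0.149) and at 0.04 at day 28. Ccn2, a matricellular target gene, and Smad7, an inhibitor that the pathway itself induces, had not passed at day 7 (-0.24 and -0.21) and were higher at day 28 (0.53, SE 0.117, and 0.44, SE 0.0999). Of the Wnt list the difference passed for 6 members above 0 and 1 below 0 (median 0.22). The 6 include the co-receptor Lrp5 and the secreted modulators Dkk3 (1.16, SE 0.224) and Sfrp2 (1.74, SE 0.385).

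Matrix proteases moved in both directions, with 6 of 21 differences above 0 and 4 below 0 (median 0.18). Adamts2, which trims procollagen, was 0.55 lower at day 7 on the log2 scale and at 0.24 at day 28 (difference 0.79, SE 0.158). Mmp11 and Mmp23 had differences of 0.70 and 0.75. Of 12 mural cell markers 2 differed, near the 12.5% of all genes: Notch3 (0.98, SE 0.173) and Myh11 (0.58, SE 0.204, adjusted p = 0.0497). The Myh11 difference failed to pass in 35 of the 46 fits with libraries left out.

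**Figure D3:**
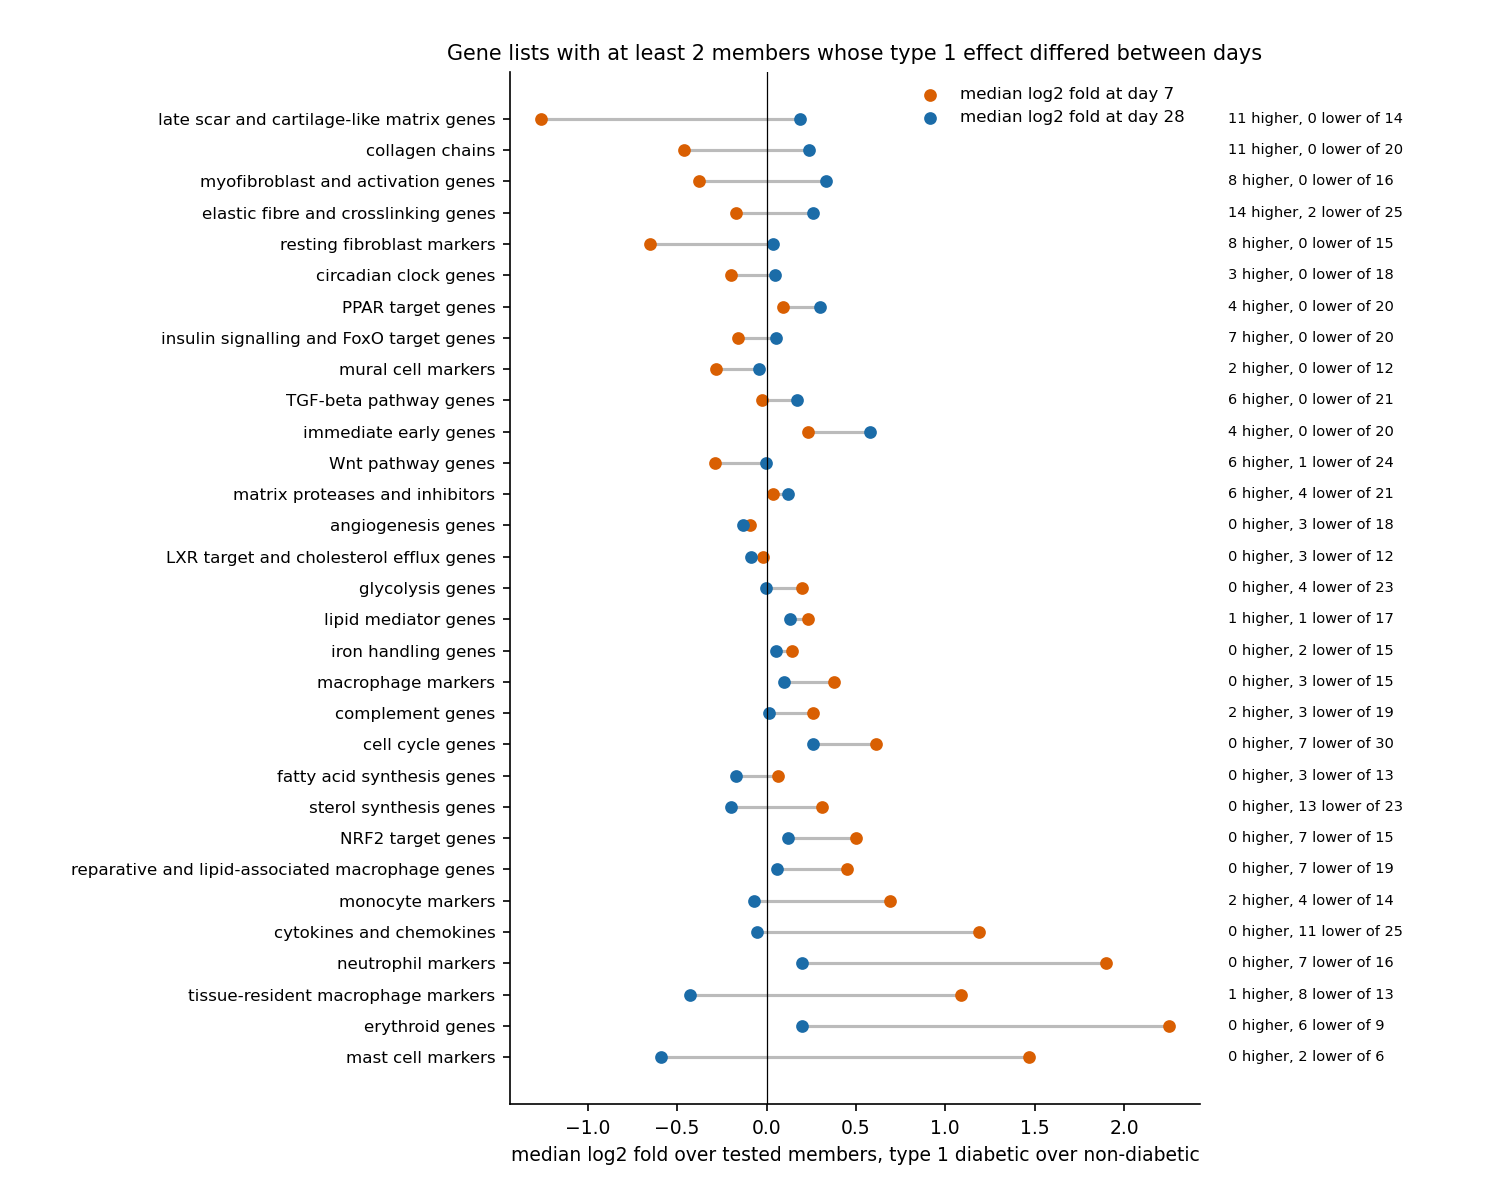
Median log2 fold of type 1 diabetic over non-diabetic tissue on the x axis at day 7 (orange) and day 28 (blue) for the 31 gene lists with at least 2 members whose effect differed between the days, ordered by the median difference. The number of members with a higher or lower effect at day 28 stands at the right. Late scar, collagen, elastic fibre and fibroblast lists lie left of 0 at day 7 and right of it at day 28, while the neutrophil, chemokine, resident macrophage and erythroid lists lie above 1 at day 7 and between -0.43 and 0.20 at day 28.

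Chemokines that recruit monocytes and neutrophils were among the genes with a lower effect at day 28. At day 7, 13 of 25 cytokines and chemokines were higher in type 1 diabetic tissue (median 1.19), and all 8 diabetic libraries had a list mean above every control. At day 28 0 were higher and 1 was lower (median -0.051). Between the days 11 members differed, all below 0, against 5.5% of all genes. Ccl7, a ligand of the monocyte receptor CCR2, ran from 1.88 through 3.12 to 4.19 log2 CPM in non-diabetic and from 3.92 through 5.10 to 6.14 in type 1 diabetic libraries at day 7, and from 1.03 through 2.31 to 2.66 and from 1.22 through 1.73 to 2.53 at day 28. At day 7 7 of 8 diabetic libraries lay above the highest control, and at day 28 9 of 10 lay below the control mean. The fold was 3.95 at day 7 (adjusted p = 2.6e-06), the log2 fold at day 28 was -0.42 (SE 0.248, adjusted p = 0.389), and the difference was -2.40 (SE 0.378, adjusted p = 2.29e-05).

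Ccl2, the other main CCR2 ligand, had a difference of -1.96 (SE 0.336, adjusted p = 7.09e-05). Cxcl5, which draws neutrophils, was higher at day 7 without overlap (2.81 to 5.06 against 0.29 to 2.40 log2 CPM), as 0.514% of genes were in the higher direction, and its difference was -2.21 (SE 0.445). Ccl8 did not overlap at day 7 either, and its difference was -1.72 (SE 0.372). With summed libraries 8 members of the list differed, and 11 did without type 1 diabetic replicate 4. Il1b, the inflammasome cytokine, had effects of 1.21 at day 7 and 0.43 at day 28, and neither day nor the difference passed (adjusted p = 0.0525, 0.618 and 0.446).

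Neutrophil markers were higher at day 7 for 14 of 16 members (median 1.90) while at day 28 0 passed in either direction (median 0.20). Between the days 7 differed, all below 0. S100a8, one chain of the alarmin calprotectin, ran from 0.31 through 1.81 to 4.14 log2 CPM in non-diabetic and from 2.46 through 3.78 to 6.79 in type 1 diabetic libraries at day 7, and from -0.04 through 1.07 to 2.13 and from 0.15 through 0.80 to 1.57 at day 28. The groups overlapped at both days. The highest value belonged to type 1 diabetic replicate 4, and non-diabetic replicate 5 was the highest control. The difference was -3.07 (SE 0.645, adjusted p = 0.000905), and -2.36 (adjusted p = 0.00466) without type 1 diabetic replicate 4. S100a9, the other chain, followed at -3.19 (SE 0.677). Without that library 3 of the 16 neutrophil markers differed in place of 7, with a median of -0.80 in place of -1.52, and with summed libraries 0 did.

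Monocyte markers split by gene: 4 of 14 differences lay below 0 and 2 above, against 5.5% and 6.98% of all genes. Members were named only from the direction with more passing members, so the 2 above 0 are not named here. The list also holds Fn1, which stands in the myofibroblast list too. Its highest mean at day 7, 5.67, was that of type 1 diabetic replicate 4. F13a1, the transglutaminase factor XIII-A, ran from 5.22 through 5.93 to 7.19 log2 CPM in non-diabetic and from 6.54 through 7.81 to 8.26 in type 1 diabetic libraries at day 7, and from 5.06 through 5.99 to 6.88 and from 4.70 through 5.36 to 6.04 at day 28. All 8 diabetic libraries lay above the control mean at day 7, and 9 of 10 lay below it at day 28. Its difference was -2.21 (SE 0.35, adjusted p = 2.59e-05). Ly6c2, a surface marker of classical monocytes, had a difference of -1.67 (SE 0.421), and Ifitm6 one of -2.16 (SE 0.521). Chil3, a chitinase-like protein that also counts in the reparative macrophage list, had one of -2.88 (SE 0.742).

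Tissue-resident macrophage markers had a median difference of -1.72, against -0.20 for the general and -0.54 for the reparative macrophage list. Resident macrophages live in the heart before the infarct and carry Folr2, Cbr2 and Lyve1. At day 7, 7 of 13 members were higher and 1 was lower (median 1.09), and at day 28 2 were lower (median -0.43). Between the days 8 differed below 0 and 1 above 0. Those below 0 include F13a1, which also counts in the monocyte list, and Ccl8, which also counts in the chemokine list. Lyve1 was not among them. It also counts in the lymphatic endothelial list, where 0 of 7 members were higher at day 7 and the difference passed for 0. The member above 0 is not named here, because members were named from the direction with more passing members. Cbr2, a carbonyl reductase, ran from 2.73 through 2.98 to 3.71 log2 CPM in non-diabetic and from 3.49 through 4.02 to 5.36 in type 1 diabetic libraries at day 7, and from 4.15 through 4.46 to 5.54 and from 2.95 through 3.80 to 4.03 at day 28. All 8 diabetic libraries were above the control mean at day 7, and all 10 were below the lowest control at day 28, as 0.0392% of genes were. Cbr2 rose 2.13-fold at day 7 and fell 1.95-fold at day 28, a difference of -2.05 (SE 0.304, adjusted p = 8.45e-06). Type 1 diabetic replicate 4 had the highest list mean of day 7, at 5.3, against 4.61 in the next, type 1 diabetic replicate 6. Without replicate 4 the Cbr2 difference was -1.78 (adjusted p = 2.1e-05).

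Folr2, a folate receptor, rose at day 7 (1.19, SE 0.242) without overlap and fell at day 28 (-0.80, SE 0.212), with all 10 diabetic libraries below the control mean. Pf4, the chemokine CXCL4, rose 2.79-fold at day 7 and had an effect of -0.31 at day 28 that did not pass (difference -1.79, SE 0.269). With summed libraries 6 of the 13 members differed below 0. The wider lists moved less: 3 of 15 macrophage markers and 7 of 19 reparative and lipid-associated macrophage genes had a lower effect at day 28, and 0 a higher one. Mrc1, the mannose receptor, had a difference of -1.22 (SE 0.245, adjusted p = 0.000557), and Msr1, a scavenger receptor, one of -1.46 (SE 0.306). Spp1, the cytokine and matrix protein osteopontin, had one of -0.88 (SE 0.304, adjusted p = 0.0453) that failed to pass in 27 of the 46 fits with libraries left out.

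**Figure D4:**
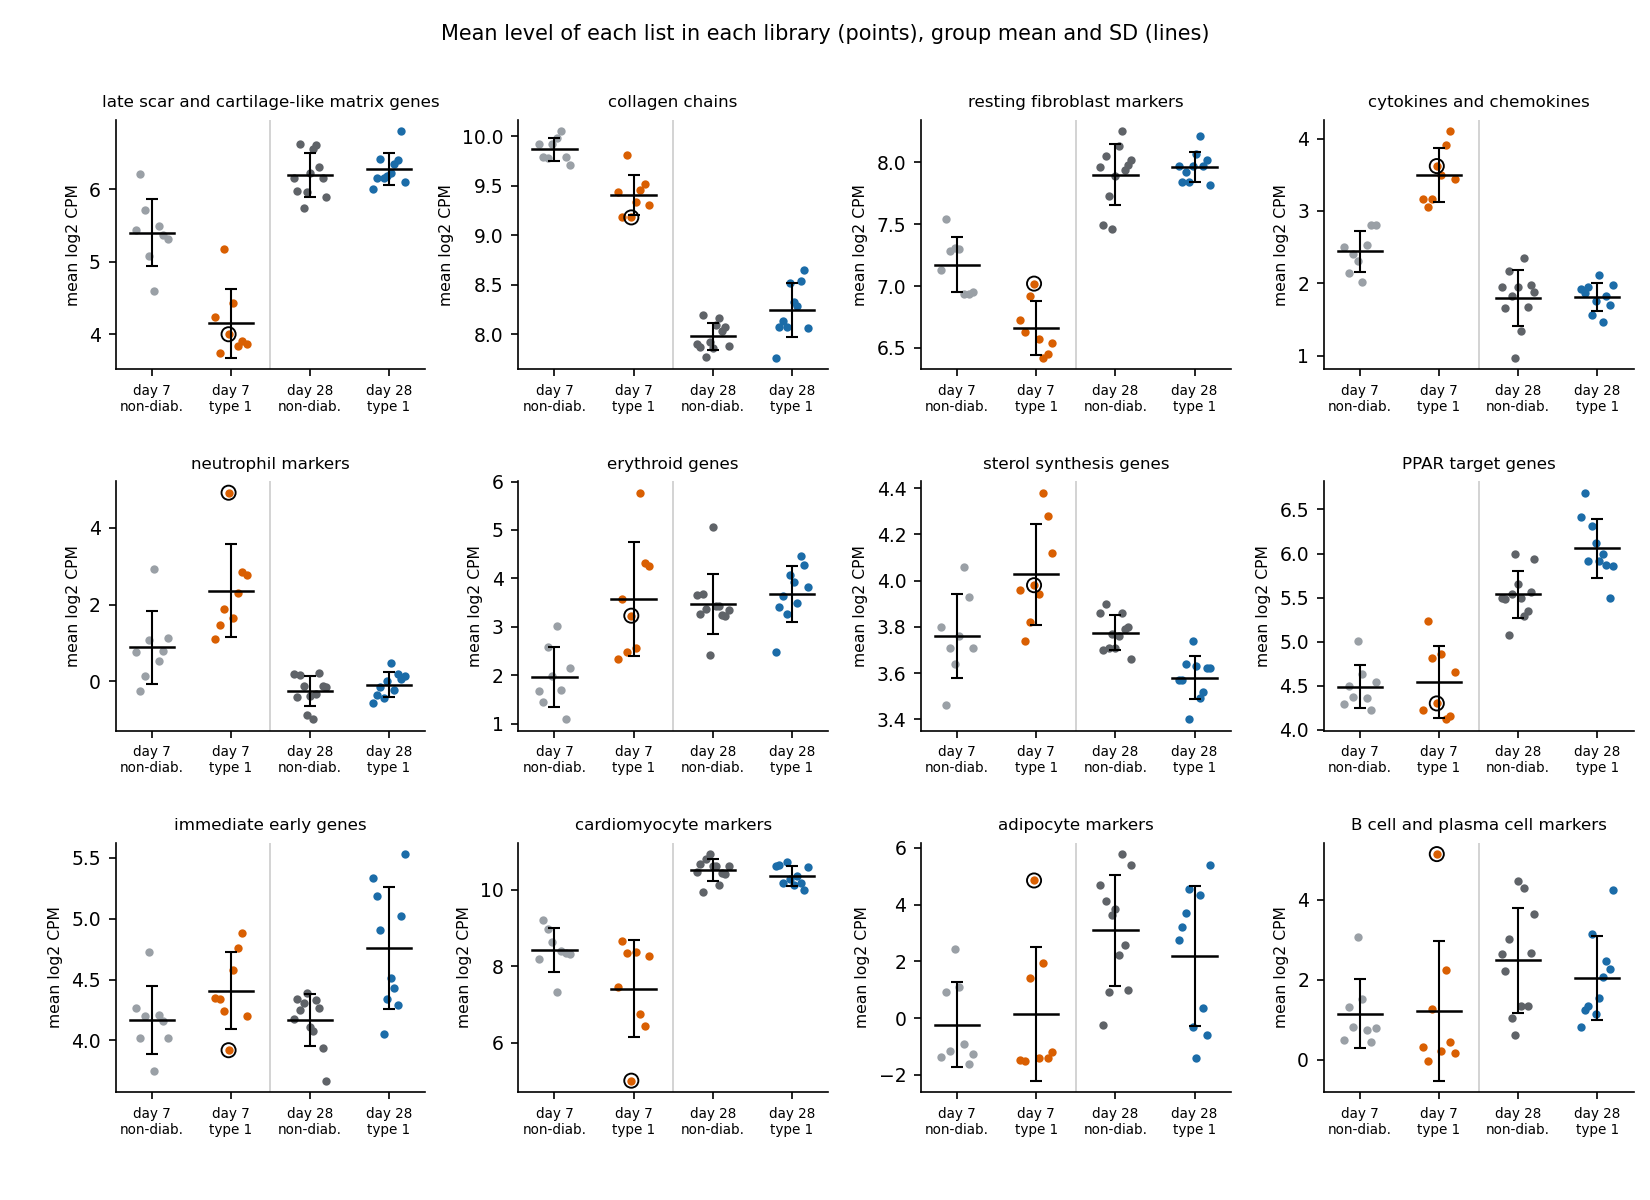
Mean log2 CPM over the tested members of 12 gene lists on the y axis in every library of the 4 groups on the x axis, with points for libraries, horizontal lines for group means, bars for the SD, and day 7 type 1 diabetic replicate 4 ringed. The late scar list is low in 7 of 8 diabetic libraries at day 7, the chemokine list is high in all 8, the sterol list is below every control in 9 of 10 diabetic libraries at day 28, and the ringed library is the highest of day 7 for neutrophil, adipocyte and B cell markers.

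Erythroid genes had the lowest median difference of the lists in which at least 3 members differed. They were higher at day 7 for 8 of 9 tested members (median 2.25), with 0 calls at day 28 (median 0.20), and the difference passed for 6, all below 0 (median -2.11). Hbb-bs, an adult beta-globin, ran from 4.98 through 5.85 to 7.26 log2 CPM in non-diabetic and from 6.13 through 7.62 to 10.17 in type 1 diabetic libraries at day 7, and from 6.80 through 8.05 to 9.63 and from 7.33 through 8.43 to 8.96 at day 28. The groups overlapped at both days. The highest list means at day 7 belonged to type 1 diabetic replicates 6, 7 and 8, at 5.77, 4.32 and 4.26. Near-identical globin genes can share reads, so single globins are uncertain. With summed libraries 0 erythroid genes differed. Tfrc, the transferrin receptor that imports iron, rose at day 7 (0.73, SE 0.27) and fell at day 28 (-0.98, SE 0.235), with 8 of 10 diabetic libraries below the lowest control there.

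Cell cycle genes and antioxidant genes under NRF2 passed mostly at day 7. Of 30 cell cycle genes 27 were higher at day 7 (median 0.61) and 2 at day 28 (median 0.26). Of all genes 10.2% were higher at day 7. The difference passed for 7 cell cycle genes, all below 0, against 5.5% of all genes. Pcna, the sliding clamp of DNA replication, had a difference of -0.60 (SE 0.149), while Mki67, a marker of cycling cells, had one of -0.38 (SE 0.225, adjusted p = 0.285) that did not pass. Of 15 tested targets of NRF2, the factor that switches on antioxidant enzymes, 10 were higher at day 7 and 0 at day 28, and 7 differences lay below 0. They include Prdx1 (-0.46, SE 0.0977) and Txn1 (-0.40, SE 0.087), which reduce peroxides and disulfides. Glrx, a glutaredoxin of the same chemistry that was not in the list, rose at day 7 (0.64, SE 0.0894) and fell at day 28 (-0.31, SE 0.0776), and its difference of -0.95 (SE 0.118, adjusted p = 1.94e-06) was among the smallest p-values of all. With summed libraries 0 cell cycle and 0 NRF2 target genes differed.

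Sterol synthesis genes were on the high side of the controls at day 7 and on the low side at day 28. They encode the enzymes from acetyl-CoA to cholesterol, which the factor SREBP-2 switches on when cells are short of sterol. At day 7, 9 of 23 were higher (median 0.31) and at day 28 4 were lower (median -0.20). The difference passed for 13, all below 0 (median -0.41), against 5.5% of all genes. The list mean lay at 3.77 ± 0.07 (SD, n = 11) in non-diabetic and 3.58 ± 0.09 (n = 10) in type 1 diabetic tissue at day 28, with 9 of 10 diabetic libraries below every control. Without both day 7 libraries numbered 4 the difference also passed for 13, with the cardiomyocyte covariate for 9, and with summed libraries for 2.

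Hmgcs1, the cytosolic HMG-CoA synthase of this pathway, ran from 4.90 through 5.19 to 5.60 log2 CPM in non-diabetic and from 5.21 through 5.69 to 5.77 in type 1 diabetic libraries at day 7, and from 5.26 through 5.33 to 5.84 and from 4.86 through 5.00 to 5.21 at day 28. At day 7, 7 of 8 diabetic libraries lay above the control mean, and at day 28 all 10 lay below the lowest control. Its effect was 0.31 at day 7 (SE 0.0945, adjusted p = 0.0144) and -0.40 at day 28 (SE 0.0826, adjusted p = 0.00271), and the difference of -0.71 (SE 0.125, adjusted p = 0.000104) passed in every alternative. Hsd17b7 had a difference of -1.01 (SE 0.224), Msmo1 of -0.74 (SE 0.163) and Fdps of -0.49 (SE 0.131); all 3 are enzymes of the same route. The promoters of the sterol genes were searched for TCACNCCAC, a form of the sterol regulatory element. That of Hmgcs1 is shown because it alone held a match, in capitals among the bases before the annotated start (RefSeq, build GRCm38.p6, chr13:119690101-119690350, plus strand).
Hmgcs1: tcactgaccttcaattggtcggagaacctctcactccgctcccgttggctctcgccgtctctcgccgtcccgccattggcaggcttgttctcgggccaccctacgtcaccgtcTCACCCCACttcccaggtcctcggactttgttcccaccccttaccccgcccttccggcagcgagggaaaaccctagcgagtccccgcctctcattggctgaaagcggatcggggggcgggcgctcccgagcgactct
The match starts 137 bases before the annotated start. Both strands were searched over the 250 bases before each start, and 1.05% of 32851 such windows held the motif. Of the 15 sterol genes with a window in the table, Hmgcs1 alone held it, which is a description of these letters and not of binding.

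Fatty acid synthesis genes were lower at day 28 for 3 of 13 and differed for 3, all below 0. Scd2, a desaturase, ran from 6.96 through 7.25 to 7.61 log2 CPM in non-diabetic and from 6.89 through 7.15 to 7.55 in type 1 diabetic libraries at day 7, and from 5.87 through 6.24 to 6.62 and from 4.98 through 5.40 to 5.99 at day 28. At day 28, 9 of 10 diabetic libraries lay below the lowest control. Its difference was -0.67 (SE 0.179, adjusted p = 0.00833). Scd1, the related desaturase of fat tissue and liver, had a difference of -2.39 (SE 0.771, adjusted p = 0.0313) that was lost without type 1 diabetic replicate 4 of day 7 (-1.84, adjusted p = 0.0959). Adipocyte markers varied widely at day 28, from -0.25 to 5.78 in non-diabetic and from -1.42 to 5.41 in type 1 diabetic libraries as mean log2 CPM, and their part in the Scd1 result was not tested.

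Targets of PPAR, the lipid-sensing receptors that switch on fatty acid use, were higher at day 28 for 6 of 20 members (median 0.30) and at day 7 for 2 (median 0.094). The difference passed for 4, all above 0, against 6.98% of all genes. Among the 4 were Cpt1a, Angptl4 and Pdk4. Pdk4, the kinase that shuts off pyruvate oxidation, ran from 5.66 through 6.63 to 7.33 log2 CPM in non-diabetic and from 6.11 through 6.95 to 8.52 in type 1 diabetic libraries at day 7, and from 6.93 through 7.83 to 8.50 and from 8.86 through 9.88 to 10.57 at day 28. The groups overlapped at day 7 and stood apart at day 28. Its fold was 1.58 at day 7 (adjusted p = 0.113) and 3.69 at day 28 (adjusted p = 1.01e-05). The difference of 1.23 (SE 0.401, adjusted p = 0.0344) was lost with summed libraries and in 13 of the 46 fits with libraries left out, for example without day 7 non-diabetic replicate 8 (1.09, adjusted p = 0.0656).

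Angptl4, a secreted inhibitor of lipoprotein lipase, rose at both days, 2.19-fold at day 7 and 5.21-fold at day 28. It ran from 4.31 through 5.64 to 6.54 log2 CPM in non-diabetic and from 6.24 through 6.77 to 7.31 in type 1 diabetic libraries at day 7, and from 3.05 through 3.40 to 4.89 and from 5.41 through 6.26 to 6.72 at day 28. The diabetic level was thus close at both days, and the control level was lower at day 28, although levels of the 2 days come from separate projects. The difference was 1.25 (SE 0.343, adjusted p = 0.0106), and 0.98 (adjusted p = 0.0916) without the day 28 non-diabetic libraries of first number 1. Cpt1a, which admits fatty acids to mitochondria, had effects of 0.17 and 0.75 and a difference of 0.59 (SE 0.138, adjusted p = 0.00295).

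Insulin signalling and FoxO target genes differed for 7 of 20, all above 0 (median 0.38), against 6.98% of all genes. FoxO factors are held out of the nucleus by insulin. At day 7, 7 members were lower, and at day 28 2 were higher. Irs2, the insulin receptor substrate that FoxO factors induce, ran from 4.11 through 4.64 to 5.57 log2 CPM in non-diabetic and from 4.62 through 4.96 to 5.20 in type 1 diabetic libraries at day 7, and from 4.15 through 4.55 to 5.11 and from 5.07 through 5.54 to 6.98 at day 28. The diabetic libraries lay within the control range at day 7, and 9 of 10 lay above it at day 28. The effect was 0.094 (adjusted p = 0.787) and then 1.24 (SE 0.177, adjusted p = 1.01e-05), with a difference of 1.15 (SE 0.269, adjusted p = 0.0027) that passed in every alternative. Foxo3 and Foxo4, 2 of the factors themselves, and Sesn3, a target, were lower at day 7 and had differences of 0.64, 0.43 and 0.48. Slc2a4, the insulin-dependent glucose transporter GLUT4, had effects of -1.28 and -0.45, and its difference of 0.82 (SE 0.402, adjusted p = 0.179) did not pass.

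Immediate early genes, which cells switch on within minutes of a stimulus, were higher at day 28 for 10 of 20 members (median 0.58) and at day 7 for 2. The difference passed for 4, all above 0, against 6.98% of all genes. They were Nr4a1, Nr4a2 and Nr4a3, a family of orphan nuclear receptors, and Atf3, a stress-induced transcription factor. Nr4a3 ran from 0.65 through 2.19 to 2.94 log2 CPM in non-diabetic and from 0.94 through 2.08 to 3.60 in type 1 diabetic libraries at day 7, and from 2.42 through 2.76 to 3.47 and from 3.70 through 4.45 to 5.89 at day 28. The groups overlapped at day 7 and stood apart at day 28. Its difference was 1.57 (SE 0.394, adjusted p = 0.00536), that of Atf3 1.52 (SE 0.423), that of Nr4a1 1.28 (SE 0.397) and that of Nr4a2 1.00 (SE 0.219). The list mean followed the first number of the library name: at day 28 the 5 diabetic libraries of first numbers 65 and 69 lay between 4.91 and 5.53 and the other 5 between 4.05 and 4.51, against 3.67 to 4.39 in the controls. Nr4a1 did not pass without the libraries of number 65 (1.14, adjusted p = 0.0631) or 69 (0.98, adjusted p = 0.088), Nr4a3 passed without either, and none of the 4 passed with summed libraries.

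Glucocorticoid-responsive genes were higher at day 28 for 8 of 15 and at day 7 for 2. The difference passed for 1, against 6.98% of all genes: Pdk4, which is also in the PPAR list. The list mean per library had a median of 4.59 in non-diabetic and 5.45 in type 1 diabetic tissue at day 7. At day 28 the medians were 5.25 and 5.98. The day 7 controls spread widely (SD 0.77), with non-diabetic replicates 5 and 4 highest at 6.54 and 5.77. Of 18 circadian clock genes 3 had a higher effect at day 28, against 6.98% of all genes. They were Cry2 (0.63, SE 0.16, adjusted p = 0.00572), Per2 and Ciart. Per2 and Ciart had adjusted p of 0.0467 and 0.0482, and failed to pass in 29 and 27 of the 46 fits with libraries left out. Non-diabetic replicate 5 of day 7 was the highest control of that day for each of these 3 genes. Without it the Cry2 difference was 0.48 (adjusted p = 0.0154). The time of day at which tissue was taken is not in the labels, and its part in these values was not tested.

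Few heart muscle genes had a difference between the days that passed the test. Of 25 cardiomyocyte markers 10 were lower at day 7 (median -0.71) and 0 at day 28 (median -0.23). The difference passed for 0, although 22 of the 25 lay above 0, with a median of 0.57. The day 7 type 1 diabetic libraries spread widely, with an SD of 1.27 in the list mean. Myh6, the adult atrial and ventricular myosin heavy chain of the mouse, had effects of -1.56 (SE 0.464) and -0.76 (SE 0.4) and a difference of 0.80 (SE 0.602, adjusted p = 0.43) that did not pass. Nppa, the natriuretic peptide of stressed muscle, had a difference of 0.62 (SE 0.298, adjusted p = 0.176). Kcnip2 and Myh7b, a potassium channel subunit and a muscle myosin, were among the 10 largest differences above 0 (2.16, SE 0.673, and 1.98, SE 0.652). Both were lower in all 8 diabetic libraries at day 7 than the control mean, as the cardiomyocyte markers were on average, and neither passed without the 2 non-diabetic libraries of first number 6.

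Several lists held few or no members whose effect differed between the days. Interferon-stimulated genes were higher at day 7 for 17 of 30 (median 0.42) and at day 28 for 6 (median 0.26), and the difference passed for 1. Irf7, their main inducing factor, had effects of 0.69 (SE 0.16, adjusted p = 0.00122) and 0.75 (SE 0.139, adjusted p = 0.00083), and a difference of 0.058 (SE 0.211, adjusted p = 0.905). All 8 and all 10 diabetic libraries lay above the control mean. Bdh1, the mitochondrial enzyme that interconverts ketone bodies, was 2.19-fold lower at day 7 and 2.27-fold lower at day 28 (difference -0.052, SE 0.446, adjusted p = 0.965). The difference passed for 0 members of the endothelial (16 tested), class II antigen presentation (10), dendritic cell (13), tricarboxylic acid cycle (20), nuclear respiratory chain (26), mitochondrially encoded (13), hypoxia target (15) and ribosomal protein (18) lists. With the cardiomyocyte markers as a covariate this changed for the tricarboxylic acid cycle, nuclear respiratory chain, mitochondrially encoded, endothelial and hypoxia target lists, with 12, 13, 4, 2 and 2 members lower, and for class II, with 1 higher.

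Some differences rested on day 7 type 1 diabetic replicate 4. The adipocyte list had a median difference of -4.05 over 11 tested members with that library and -0.36 without it, and the mast cell list -2.23 and -0.39. Adipoq, the fat cell hormone adiponectin, had an effect of 4.21 at day 7 (SE 1.67, adjusted p = 0.0613) and did not pass. Among the genes named for the largest differences below 0, Col6a5 (-2.52, adjusted p = 0.0429) became -1.01 (adjusted p = 0.418) without it. Esm1, a secreted marker of endothelial tip cells, was lower at day 28 without overlap (0.76 to 2.52 against 2.57 to 3.25 log2 CPM; log2 fold -1.23, SE 0.23) and at -0.22 at day 7, but its difference of -1.01 (SE 0.344, adjusted p = 0.0437) failed to pass in 27 of the 46 fits with libraries left out.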

How the data were processed

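RNA had been extracted from infarcted left ventricle and made into libraries with a stranded mRNA kit, per the labels' protocols. The authors deposited raw counts per Ensembl gene with 1 table per day. Build mm39 and the tool DESeq2 are named, without their roles, per the submitters' processing notes. Which aligner, counter, strand setting and annotation were used is not given in the sources used here, so genes with near-identical copies or antisense partners are uncertain.

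The deposited counts of the 56867 genes in both tables were used as they stood. Of the counts from 1 to 49, 76.4% were even at day 7 and 75.2% at day 28; the cause was not tested, and totals may overstate the number of independent fragments. Symbols for 51880 genes came from an annotation of another build by Ensembl identifier. No 2 libraries of a group agreed within counting noise.

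All 55 libraries in 6 groups were fitted with edgeR 4.0.16 in R 4.3.3: TMM scaling, filterByExpr (minimum count 10, total 15), glmQLFit and then glmQLFTest. A gene passed where its p, adjusted by Benjamini-Hochberg over 20421 genes, was 0.05 or less. An SE is the size of the log2 fold divided by the square root of F. Levels are log2 CPM with a prior count of 2, and a level between days also holds the project. The script was tested on simulated data.

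The 56 gene lists and the members were chosen with earlier results of these data known. Some genes stand in several lists, so the lists are not independent of each other. Genes were named by rule: the 10 largest passing differences in each direction at a mean log2 CPM of at least 1, the 8 smallest p-values among genes with opposite signs at both days, up to 4 passing members of each list with at least 2, and 20 fixed genes. Members of a list were taken from the direction that most of its passing members had, unless the directions tied. A named gene is not reported here. Alternatives tried were DESeq2 1.42.0, RLE scaling, limma-voom (limma 3.58.1) with quality weights, a fit of the 4 groups alone, no low-count filter, each day fitted alone, a block for the replicate number, the cardiomyocyte mean as a covariate, libraries summed by first number, and each of the 37 libraries left out. Both day 7 libraries numbered 4, and 9 sets that share a first number, were left out as alternatives chosen after seeing the data.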

Additional observations from a re-analysis of the deposited data

Results flagged for a closer look

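The type 1 diabetic effect itself differed between the days, by the test of that difference, for 1425 genes with a higher and 1123 genes with a lower effect at day 28. Among the named genes that changed at both days with opposite signs, the differences were 2.49 for Fbln7, 1.78 for Art4, 1.49 for Ssc5d, 1.46 for Cthrc1, 1.34 for Col7a1, 1.28 for Mmp2, 1.2 for Col14a1, 1.17 for Clu, 1.07 for Lrp5, 0.76 for Synpo, 0.75 for Mfge8 and 0.67 for Cdc42bpg on the log2 scale. They were -2.05 for Cbr2, -2 for Folr2, -1.71 for Tfrc, -0.95 for Glrx and -0.71 for Hmgcs1.

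In 35 of 396 gene and group pairs over the 132 named genes, 1 library lay far from the rest of its group by Dixon's gap test. Chance gives about 1 such pair in 20. The day 28 non-diabetic group, with 11 libraries, was not examined in this way. Day 7 type 1 diabetic replicate 4 was high for C6 (2.18 log2 CPM), Cpa3 (2.73) and Scd1 (7.43) and low for Hk2 (6.15), Pgk1 (7.47) and Nppa (6.89). Day 7 type 1 diabetic replicate 3 lay toward the controls for Msr1 (5.71), Glrx (4.06), Ltbp3 (8.34), Dkk3 (7.11), Col16a1 (8.72) and Ssc5d (6.83), and replicate 7 was low for Myoc (-4.78). Day 7 non-diabetic replicate 5 was high for Ifitm6 (0.61) and Gclc (5.17) and low for Il1b (-0.54), Hk2 (6.14), Synpo (8.42) and Nr4a3 (0.65). Day 7 non-diabetic replicate 4 was low for Cxcl5 (0.29), Alox5 (1.46) and Postn (12.07) and high for Pgk1 (8.2), and replicate 2 was low for Msr1 (4.62) and Hk3 (4.01).

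At day 28 type 1 diabetic replicate 9 was low for Cd163 (1.85) and Per2 (3.40) and high for Tgfb3 (8.25) and Fmod (9.19). Among the other day 28 type 1 diabetic libraries, replicate 10 was low for Cxcl5 (0.25), replicate 6 high for Cfb (1.32), replicate 5 low for Cfp (2.40) and Ccne1 (-0.11) and replicate 4 low for Smoc2 (7.42).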

How the results depend on the processing

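Summing libraries by first number gave 299 genes with a higher and 124 with a lower effect at day 28, 1344 higher and 1554 lower genes at day 7, 2 and 0 at day 28, and 391 genes that had passed at day 7 only, 0 at day 28 only and 0 at both with opposite signs. That fit has fewer samples. With limma-voom quality weights 1861 genes had a lower effect, 1291 were higher and 1501 lower at day 28, 545 had passed at day 28 only and 306 at both with opposite signs. With the cardiomyocyte covariate the same 5 numbers were 1824, 607, 531, 365 and 166. DESeq2 called 414 lower genes at day 28 and 126 with opposite signs, and the fit without a low-count filter 150 and 47; the causes were not tested.

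The replicate numbers did not pair the libraries: same-numbered libraries correlated at -0.30 to 0.18 over 8 pairs at day 7, 5 of them over 0.1, and at -0.19 to 0.07 over 10 pairs at day 28. Of these libraries 2 and 0 correlated best with their own number. With the replicate block 1273 genes had a higher and 926 a lower effect at day 28, 259 were higher and 158 lower at day 28, and 50 had opposite signs.

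With libraries left out the counts ran from 927 to 1713 higher and 569 to 1360 lower for the difference, 1132 to 2509 and 1414 to 2752 at day 7, 68 to 528 and 15 to 382 at day 28, 1017 to 2397 for day 7 only, 36 to 247 for day 28 only and 3 to 110 for opposite signs. The lowest counts of the difference came without the day 7 type 1 diabetic libraries of first number 52. Near-zero differences changed sign: Bdh1 at 0.012 with limma-voom, 0.061 with the block and 0.10 with sums (-0.31 to 0.20 with libraries left out), Pecam1 at -0.046 with limma-voom (-0.038 to 0.078) and Irf7 at -0.034 with the cardiomyocyte covariate (-0.034 to 0.17). No called named gene changed sign in any alternative, though all alternatives reuse the same libraries. Low counts limit the named genes with a mean log2 CPM under 0, such as Wnt16 (-1.33) and C6 (-1.68).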
